A study of Mustela putorius furo and Mus musculus with 4 samples.

Results

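The replication-dependent histone genes of the mouse were taken as every gene of the deposited mouse table whose symbol begins with Hist1h, Hist2h, Hist3h or Hist4h, which gave 64 of its 17170 genes. By their symbols, 5 are of the linker histone H1, 18 of H2A, 17 of H2B, 12 of H3 and 12 of H4. Among those of H2A, Hist1h2al is annotated as a processed pseudogene. The data are 10x single-cell RNA sequencing libraries of E18.0 cortex from CD1 mice, in which CellTrace Yellow, a dye taken up by the cells that line the ventricle, had been injected into the lateral ventricle at E17.0 and the dye-labeled cells were sorted. One library came from mice that carried hGFAP-Cre and Smo F/F alleles (Smo-cKO), in which Cre acts in cortical radial glial (RG) cells and their progeny and removes Smo, the receptor component that passes on the SHH signal, and 1 came from Smo F/F littermates without Cre (control, named wild type in the labels). The table does not name the library of a cell. Barcodes carried 1 of 2 suffixes, 10524 of them the one assigned to control and 7596 the one assigned to Smo-cKO. The assignment was made from the cell numbers the study gives for its libraries, and every direction between genotypes would turn if it were exchanged.

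Replication-dependent histone genes supply the proteins that wrap newly copied DNA. They lie in clusters, nearly all lack introns, and their mRNAs usually end in a conserved stem-loop in place of a poly(A) tail. The stem-loop binding protein Slbp holds this end, the factors Npat and Casp8ap2 serve transcription of the clusters, and the mRNAs are made in S phase and lost at its end. Libraries primed on poly(A), as 10x libraries are, read only the part of such mRNAs that carries a tail, and some of the genes are known to make tailed mRNAs in cells that have stopped dividing. A level here is thus a level of captured RNA, and levels were compared between cells and not between genes.

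The stem-loop is shown first, because it marks the family and because the genes differ in whether their annotated transcript runs past it. Of the 64 genes, 63 matched the GENCODE M21 annotation (GRCm38, the same assembly as mm10): 50 on chromosome 13, 10 on chromosome 3, 2 on chromosome 11 and 1 on chromosome 6. Hist2h2bb.1, the name given to a repeated symbol, matched none. The first 150 bases after the stop codon were searched on the sense strand for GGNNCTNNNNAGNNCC, with the 6 outer bases on each side able to pair. It was found in 44 of 49 of these genes with at least 16 bases of annotated 3′ UTR (89.8%) and in 12 of 14664 other genes (0.0818%), H2afx among them. Examples follow, with the stem in capitals and the loop in lower case; the first form was found in 26 genes, the second in 6, the third in 5, the fourth in 2 and the fifth in 2.
Hist1h2ap, chr13:21833026-21833507, minus strand: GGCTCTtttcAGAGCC
Hist1h4h, chr13:23531050-23531519, plus strand: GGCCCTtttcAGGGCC
Hist1h3e, chr13:23561534-23562369, minus strand: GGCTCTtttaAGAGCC
Hist1h4i, chr13:22040636-22041362, minus strand: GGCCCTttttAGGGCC
Hist1h4j, chr13:21735064-21735837, plus strand: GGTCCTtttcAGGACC
The coordinates are those of the genes. The first form also stands in Hist3h2ba, chr11:58948920-58949533 on the plus strand, whose transcript is annotated for 169 bases past it. In Hist1h2ap only 3 bases follow it.

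Cell classes were named from markers after clustering with all of these genes and the listed histone-related genes left out. Of 17707 cells kept, 1131 control and 539 Smo-cKO cells were cycling RG-like, 679 and 703 were RG-like and not called cycling, 1452 and 442 were cycling MIPC-like (multipotent intermediate progenitors), 2037 and 1263 were PyN-IPC-like (intermediate progenitors of pyramidal neurons) and 3703 and 3101 were PyN-like (pyramidal neurons). At a finer clustering, 279 control and 50 Smo-cKO cycling cells formed a cluster with 2 PyN-IPC markers and no MIPC marker, too few for a name. How many dividing PyN-IPC cells the cycling MIPC-like class held was not tested. Depth differed between the libraries: the median was 4034 UMIs per cell in control and 4836 in Smo-cKO, and in cycling RG-like cells 6062 and 9405. The lower limit of 750 genes removed 1 control and 354 Smo-cKO cells, and 28 barcodes occurred in both libraries. Smo had 109 UMIs in control and 1 UMI in Smo-cKO cycling RG-like cells, a ratio of 0.0137 (0.000344 to 0.0779) after scaling to the UMIs of each class, which runs in the direction of the assignment. The labels do not say which exons were removed. Each genotype is 1 library, so there was no test between genotypes. All intervals are 95% intervals that cover counting error only, and a difference between genotypes cannot be told apart from one between embryos or preparations.

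In all, 162271 UMIs came from the 64 genes. Hist3h2ba alone gave 60799 of them (37.5%), and the 5 genes with the most UMIs, Hist3h2ba, Hist1h1e, Hist1h2ap, Hist1h2ae and Hist1h1b, gave 68.1%. At least 100 UMIs were counted for 53 genes and fewer for 11, down to 3 for Hist1h2bq. Many coding sequences are nearly the same: 47 genes shared at least one 90-base stretch of their last 500 bases with another gene, and 26 shared over 50% of such stretches. The value of 92.4% for Hist1h2ap and of 99.0% for Hist1h1e, whose 3′ end overlaps an annotated transcript of Hist1h2be on the same strand, makes their single-gene counts uncertain.

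**Figure D1:**
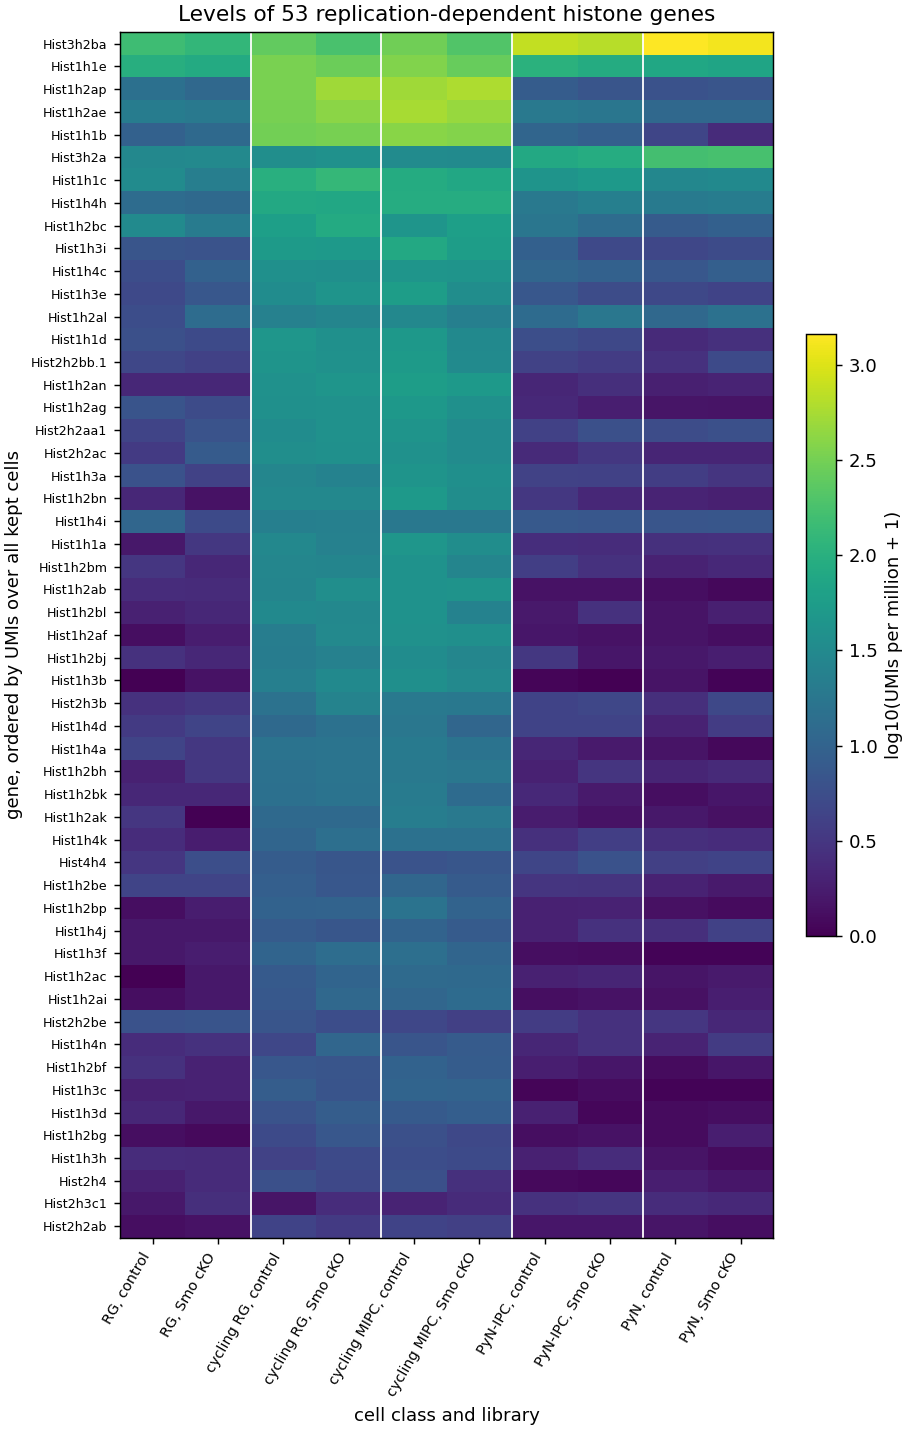
Levels of the 53 genes with at least 100 UMIs, as log10 of CPM plus 1 (color), in 5 cell classes of each library (columns), with genes ordered from most to fewest UMIs. Most rows are brightest in the cycling columns, while Hist3h2ba and Hist3h2a are brightest in the PyN columns.

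The genes fell into 2 patterns across the classes. The 62 genes with Hist1, Hist2 or Hist4 symbols were together far higher in cycling progenitors than in RG-like, PyN-IPC-like or PyN-like cells. The Hist3 genes on chromosome 11, Hist3h2ba, which encodes an H2B, and Hist3h2a, which encodes an H2A, were highest in neurons. This split by locus was made after the values were seen.

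The Hist1, Hist2 and Hist4 genes summed to 316 CPM (UMIs per 1000000 UMIs of the class, interval 297 to 336) in RG-like cells of the control library and to 2385 (2351 to 2420) in its cycling RG-like cells, 7.55 times as much (7.09 to 8.05). In the Smo-cKO library the sums were 292 (277 to 307) and 2709 (2665 to 2754), a ratio of 9.29 (8.80 to 9.82). Cycling MIPC-like cells of control held 3207 and those of Smo-cKO 2848. In PyN-IPC-like cells, which were not called cycling, the sums were 321 and 306, and in PyN-like cells 222 and 234. With the Hist3 genes added, the ratio of cycling to non-cycling RG-like cells was 5.39 (5.12 to 5.68) in control and 6.59 (6.30 to 6.90) in Smo-cKO.

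The share of cells with a UMI of a Hist1, Hist2 or Hist4 gene followed the sums, but no class was free of them. It was 92.5% of control and 96.7% of Smo-cKO cycling RG-like cells, against 69.4% and 75.8% of RG-like cells and 50.3% and 53.9% of PyN-like cells. With every cell thinned to 2900 UMIs, leaving out shallower cells, the shares were 82.9% and 83.3% in cycling RG-like cells (1090 and 525 cells), 55.4% and 52.9% in RG-like cells (601 and 665 cells) and 45.0% and 44.5% in PyN-like cells (2489 and 2750 cells). Microglia-like cells that were not cycling, 25 in control and 100 in Smo-cKO with median depths of 7162 and 6286 UMIs, gave 32.5% and 45.4% after thinning and 151 and 220 CPM. The control microglia-like share rests on 23 cells at this depth. No expression is read from the shares in PyN-like cells. How much of the level in any non-cycling class was RNA free in the suspension was not tested.

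By a call of at least 2-fold on CPM with 1 added, among genes with at least 50 UMIs in both classes together, 42 of 46 of the 64 genes that could be called were higher in cycling than in non-cycling RG-like cells in control, where 6.12% of all genes tested were higher, and none was lower, where 2.16% were. In Smo-cKO 39 of 44 were higher, against 5.18% of all genes, and none was lower, against 2.69%. The median log2 ratio of these genes was 2.71 in control and 2.77 in Smo-cKO, against 0.01 and -0.06 over all genes tested. A gene that is low elsewhere enters the call only through the class where it is high, so these counts leave out 18 genes in control and 20 in Smo-cKO and are a description.

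Within the linker histones the size of the difference varied widely. Hist1h1b stood at 8.65 CPM in RG-like and 309 in cycling RG-like cells of control and at 11 and 323 in Smo-cKO, ratios of 35.7 (24.6 to 53.9) and 29.4 (22.4 to 39.3). Hist1h1a, at 0.618 and 29.0 in control and 2.24 and 23.6 in Smo-cKO, was also low outside cycling cells. Hist1h1d differed 9.18-fold and 9.21-fold. Hist1h1e differed 3.53-fold (3.14 to 3.98) and 3.32-fold (2.98 to 3.71), and Hist1h1c 2.95-fold (2.40 to 3.65) and 5.81-fold (4.73 to 7.21). Hist1h1c and Hist1h1e kept 27.9 and 76.6 CPM in control PyN-like cells, whereas Hist1h1b had 3.64 there.

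The H2A genes held the most UMIs of the cycling cells. Hist1h2ap stood at 13.6 and 340 CPM in RG-like and cycling RG-like cells of control and at 10.8 and 512 in Smo-cKO, ratios of 25.0 (18.6 to 34.5) and 47.4 (36.1 to 63.4). Hist1h2ae stood at 20.4 and 325 in control and at 17.7 and 407 in Smo-cKO, ratios of 16 (12.5 to 20.7) and 22.9 (18.5 to 28.7). A UMI of Hist1h2ap was found in 46.0% and 48.4% of cycling RG-like cells, 6.04% and 6.54% of RG-like cells and 1.84% and 2.29% of PyN-like cells of control and Smo-cKO. All 12 callable H2A genes outside the Hist3 locus were called higher in cycling RG-like cells in each library, beside 6.12% of all genes tested in control and 5.18% in Smo-cKO. As said above, a gene that is low elsewhere is callable only through the cycling class, here and in the other families. Hist1h2al, annotated as a processed pseudogene with no coding transcript, had the smallest ratio in Smo-cKO, 2.2 (1.61 to 3.04). In control its ratio was 5.13 (3.03 to 9.35).

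Among the H2B genes of the Hist1 and Hist2 clusters, 10 of 12 were called higher in control and 9 of 11 in Smo-cKO, beside the same 6.12% and 5.18% of all genes. Hist1h2bn had 1.24 CPM in RG-like and 28.6 in cycling RG-like cells of control and 0.408 and 28.6 in Smo-cKO. The ratios of Hist1h2bm were 12.7 (6.06 to 32.0) and 21.7 (9.71 to 60.1), and those of Hist1h2bl were 32.7 (11 to 160) and 23.5 (10.6 to 65.1). Hist2h2be did not differ beyond counting error in either library, with ratios of 1.12 (0.629 to 2.08) and 0.802 (0.445 to 1.43). Hist1h2bc was 1.91-fold (1.54 to 2.40) and 4.35-fold (3.49 to 5.49) higher in cycling cells. Hist1h2be, the other H2B gene not called in Smo-cKO, had a ratio of 1.82 (0.983 to 3.48) there. In Hist2h2be and Hist1h2bc no stem-loop was found in the first 150 bases after the stop codon. Their annotated 3′ UTRs of 2192 and 742 bases were not searched beyond that.

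The H3 and H4 genes had lower counts. All 7 callable H3 genes in control and all 6 in Smo-cKO were called higher in cycling RG-like cells, beside 6.12% and 5.18% of all genes. Hist1h3i went from 5.87 to 52.6 CPM in control and from 5.51 to 50.3 in Smo-cKO, and Hist1h3b from 0 (interval up to 1.14) to 22.5 and from 0.408 to 30.5. Of the H4 genes, 8 of 8 in control and 7 of 8 in Smo-cKO were called higher, beside the same shares of all genes. Hist1h4h, at 12 and 79.97 in control and 11.2 and 78.0 in Smo-cKO, differed 6.64-fold (4.8 to 9.43) and 6.95-fold (5.24 to 9.39). Hist4h4, the 1 gene on chromosome 6, differed 3.37-fold (1.53 to 8.75) in control, while its ratio of 1.30 (0.738 to 2.33) in Smo-cKO could not be told from no difference.

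The Hist3 genes were highest in neurons. Hist3h2ba had 151 CPM in RG-like cells, 250 in cycling RG-like cells, 744 in PyN-IPC-like cells and 1453 in PyN-like cells of control, and 122, 178, 670 and 1297 in the same classes of Smo-cKO. It was 9.64-fold (8.81 to 10.6) and 10.6-fold (9.77 to 11.5) higher in PyN-like than in RG-like cells, and 97.2% and 96.3% of PyN-like cells had a UMI of it. Hist3h2a had 28.7, 35.9, 78.9 and 162 CPM in these classes of control and 29.8, 38.5, 90.8 and 172 in Smo-cKO. In cycling RG-like cells against PyN-like cells these were the 2 genes called lower in each library, where 13.2% and 17.3% of all genes tested were lower, and 44 of 46 and 38 of 43 of the 64 genes were called higher, where 18.4% and 16.7% of all genes were. Here too a gene that is low in PyN-like cells enters the call only through the cycling class, so the counts are a description. Summed over all 64 genes, cycling RG-like cells exceeded PyN-like cells by only 1.45-fold (1.43 to 1.48) in control and 1.72-fold (1.68 to 1.75) in Smo-cKO, while without the Hist3 genes the ratios were 10.7 (10.3 to 11.2) and 11.6 (11.1 to 12.1). In PyN-like against RG-like cells, 3 of 16 callable genes were higher and 3 lower in control, where 15.4% and 15.9% of all genes tested were, and 2 of 20 were higher and 3 lower in Smo-cKO, where 16.0% and 16.1% were. Outside the Hist3 locus, Hist1h4h was 1.53-fold (1.09 to 2.2) and 1.80-fold (1.34 to 2.45) higher in PyN-like than in RG-like cells. Hist1h2al differed 2.29-fold (1.34 to 4.20) in control, with a ratio of 1.17 (0.866 to 1.59) in Smo-cKO, and Hist1h1c 1.43-fold (1.15 to 1.79) in Smo-cKO, with a ratio of 0.854 (0.686 to 1.07) in control.

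The genes were also set out by their annotated 3′ end. In 22 genes the annotation ended less than 100 bases past the stem-loop, and in 22 it ran at least 100 bases past it. In 15 the 3′ UTR was too short to tell. In 3 (Hist2h2be, Hist1h2bc and Hist1h2bq) the 3′ UTR had at least 75 bases and the search of its first 150 bases found no stem-loop. The genes with the longer transcripts gave 67.9% of the UMIs, mostly from Hist3h2ba, and those ending soon after the stem-loop 16.4%. The median log2 ratio of cycling over non-cycling RG-like cells was 2.90 in control and 2.84 in Smo-cKO for the genes ending soon after the stem-loop (14 and 13 callable), 1.87 and 2.27 for those running past it (17 and 16), 3.73 and 3.59 for those with a short 3′ UTR (11 in each) and 0.53 and 0.90 for the 2 callable genes in which no stem-loop was found. These medians are over callable genes alone, many of which could be called only through the cycling class, and are a description. The ranges overlapped: from 1.35 to 4.55 in the first set of control and from 0.31 to 3.93 in the second.

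**Figure D2:**
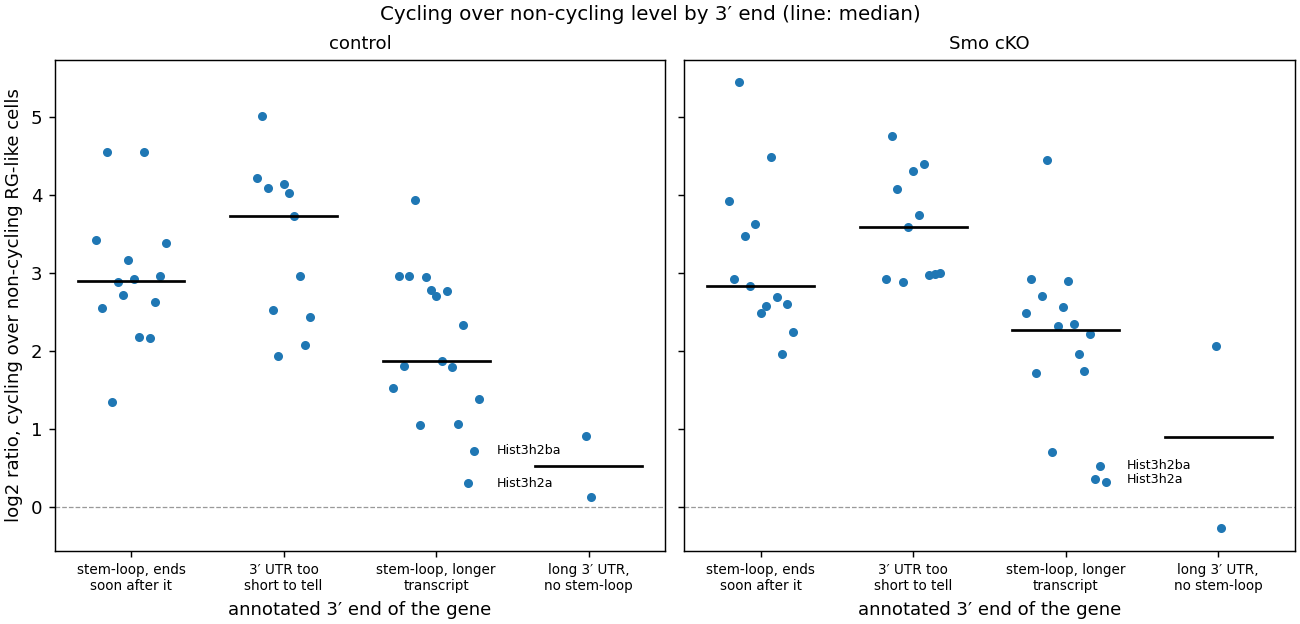
Log2 ratio of CPM (1 added) in cycling over non-cycling RG-like cells for each callable gene, by its annotated 3′ end, in control (left) and Smo-cKO (right), with the median as a line. The genes that run past the stem-loop had medians of 1.87 and 2.27, below the 2.90 and 2.84 of those that end soon after it, and overlap with them.

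Cycling RG-like and cycling MIPC-like cells were then compared. None of 54 callable genes in control and of 47 in Smo-cKO differed 2-fold between these classes, where 8.92% and 8.11% of all genes tested were higher and 2.71% and 3.26% lower. The interval of the ratio lay below 1 for 33 genes and above 1 for 4 in control, and below 1 for 7 and above 1 for 3 in Smo-cKO. Over all genes tested 22.0% and 20.6% lay below 1 and 32.2% and 24.3% above. Hist1h1c, at 1.12 (1.01 to 1.24) and 1.61 (1.39 to 1.86), and Hist1h2bc, at 1.36 (1.19 to 1.55) and 1.42 (1.2 to 1.68), were above 1 in both libraries. The sum of the Hist1, Hist2 and Hist4 genes in cycling RG-like cells was 0.744 times (0.730 to 0.757) that in cycling MIPC-like cells of control and 0.951 times (0.927 to 0.976) in Smo-cKO.

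The same mRNAs were then followed through the cycle with scores for S and G2M genes, none of which is among the 64. Cells called S held 0.775 times (0.750 to 0.801) as many CPM of the 64 genes as cells called G2M among cycling RG-like cells in control, and 0.807 times (0.779 to 0.836) in Smo-cKO. This direction was lost when the phase was taken from the larger of both list shares, which gave 1.27 and 1.40, and when clusters were made without integration, which gave 1.68 and 1.59, so the sum of these genes has no fixed order between the calls. Without integration the clusters of RG-like cells split by library, so those values rest on other mixes of cells. By the main calls 5 of 44 and 5 of 40 genes were at least 2-fold lower in S calls, where 2.59% and 2.85% of all genes were, and none was higher, where 2.38% and 2.75% were.

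A call of S or G2M hides cells in which both scores are above 0, so the cells were also split by the sign of both scores, a choice made after seeing the data. Both scores were above 0 in 717 control and 300 Smo-cKO cells, only the S score in 98 and 74, only the G2M score in 308 and 148, and neither in 8 and 17. The Hist1, Hist2 and Hist4 genes summed to 409 CPM in control cells with only the S score above 0, to 3264 in those with both and to 943 in those with only the G2M score. In Smo-cKO the sums were 327, 4071 and 990. Median depths were 6182, 6279 and 5529 UMIs in control and 9555, 10057 and 7595 in Smo-cKO. Scores lie on a range, and 44, 171 and 170 control cells of these groups were within 0.05 of a dividing line. In Smo-cKO these were 35, 81 and 94 cells, so most Smo-cKO cells with only the G2M score above 0 were near a line.

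Of the 40 genes with at least 100 UMIs in cycling RG-like cells, 36 were highest in cells with both scores above 0 in both libraries, 4 were highest with only the G2M score above 0 in both, and none with only the S score. The bar of 100 UMIs favors genes that are high in the group with the most cells. The share of all genes that peak in each group was not counted, so these counts are a description. The highest group was taken by its value alone, however small the difference. For Hist1h4i in control, 24.8 CPM with only G2M stood against 24.1 with both. Hist3h2ba in control had more with only S (248) than with both (223). Hist1h2ap had 17.9, 496 and 73.6 CPM with only S, both and only G2M above 0 in control, and 19.4, 824 and 91.9 in Smo-cKO. Hist1h1b had 37.3, 446 and 72.6 in control and 36.0, 523 and 37.5 in Smo-cKO. The exceptions were Hist1h2bc, with 10.4, 53.6 and 86.0 in control and 4.16, 64.9 and 163 in Smo-cKO, Hist3h2ba, with 248, 223 and 314 and 108, 167 and 237, Hist3h2a, with 20.9, 35.0 and 43.0 and 26.3, 36.8 and 50.6, and Hist1h4i, with 4.48, 24.1 and 24.8 and 2.77, 23.3 and 30.6. Slbp, the binding protein of the stem-loop, had 221, 168 and 34.4 in control and 161, 174 and 29.1 in Smo-cKO.

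**Figure D3:**
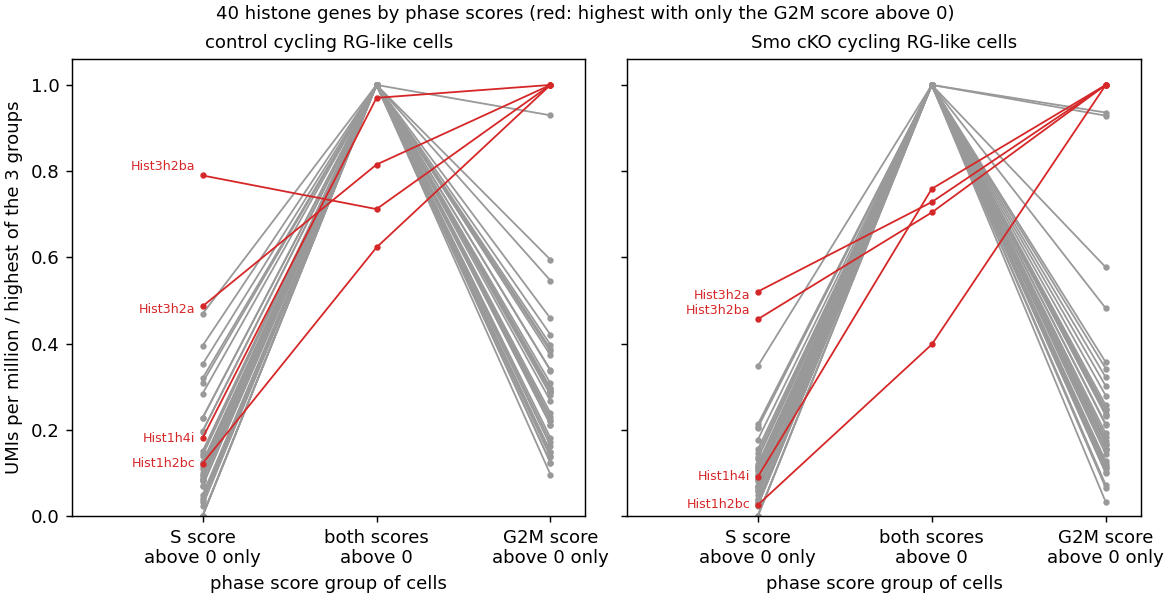
CPM of the 40 genes with at least 100 UMIs in cycling RG-like cells, each divided by its highest value over the 3 groups of cells on the x axis, in control (left) and Smo-cKO (right). In each library 36 genes (gray) are highest where both scores are above 0 and 4 (red) where only the G2M score is.

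Counts per cell were uneven. Cycling RG-like cells had a median of 6 UMIs of the Hist1, Hist2 and Hist4 genes from 4 genes in control and 7 UMIs from 5 genes in Smo-cKO, with up to 128 and 228 UMIs in 1 cell. The tenth of cells with the most held 38.5% of these UMIs in control and 45.7% in Smo-cKO. In cycling MIPC-like cells this share was 36.4% and 52.8%.

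Between the genotypes the sum over the 64 genes differed little in cycling RG-like cells. It was 2671 CPM (2635 to 2708) in control and 2925 (2879 to 2972) in Smo-cKO, a ratio of 1.10 (1.07 to 1.12). The direction did not hold under other choices. With cells thinned to 2900 UMIs the ratio was 0.981, without the 5% of cells with the most UMIs 0.989, with cells chosen one by one by markers 0.916, and over the 20 genes with under 10% of their stretches shared, a set made after seeing the data, 0.986. The Hist1, Hist2 and Hist4 genes alone gave 1.14 (1.11 to 1.16), and 1.00 after thinning. In RG-like cells the sum over the 64 genes was 495 in control and 444 in Smo-cKO. It was 3537 and 3080 in cycling MIPC-like cells, 1145 and 1066 in PyN-IPC-like cells and 1837 and 1702 in PyN-like cells. Outside the cycling classes 12 genes could be called in RG-like cells, of which Hist1h2al was higher in Smo-cKO, at 4.63 and 12.03 CPM (where 1.53% of all genes tested were higher), and Hist1h4i lower, at 10.2 and 4.08 CPM (where 1.28% were lower). None of 20 was called in PyN-IPC-like cells, where 1.1% of all genes were higher and 0.346% lower, or of 20 in PyN-like cells, where 0.47% were higher and 0.367% lower.

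Single genes were then compared between the genotypes. Of 50 genes that could be called in cycling RG-like cells, 1 was at least 2-fold higher in Smo-cKO, where 1.17% of all genes tested were. None was at least 2-fold lower, where 1.84% were, so these counts are not a result about the family. The 1 gene was Hist1h4n, which encodes an H4, with 3.70 CPM in control and 10.1 in Smo-cKO, a ratio of 2.73 (1.70 to 4.45), and 81.2% of its stretches were shared with other genes. The interval of the ratio lay above 1 for 11 genes, where 12.6% of all genes tested did, below 1 for 3, where 19.8% did, and held 1 for 36. The median log2 ratio was 0.08, against -0.05 over all genes tested.

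Of the 13 callable H2A genes 12 had a log2 ratio above 0, as had 42.0% of all genes tested, with a median of 0.20. The interval lay above 1 for 5, where 12.6% of all genes tested did. H2A genes share stretches with each other, such as 92.4% for Hist1h2ap, 88.8% for Hist1h2ai and 66.5% for Hist1h2af. Counts could be split between copies, so these genes are not separate observations. The sum of the Hist1, Hist2 and Hist4 genes did not keep its excess after thinning, as given above. Hist1h2ap had 340 CPM in control and 512 in Smo-cKO, a ratio of 1.51 (1.43 to 1.59), which was 1.31 after thinning, while the share of cells with a UMI after thinning was 37.1% and 36.7%. Hist1h2ae had 325 and 407, a ratio of 1.25 (1.18 to 1.32), which was 1.10 after thinning. The other H2A genes with an interval above 1 were Hist1h2ai, at 1.67 (1.12 to 2.48), Hist1h2af, at 1.39 (1.11 to 1.75), and Hist1h2ab, at 1.36 (1.11 to 1.66). Among H3 genes Hist2h3b had 14.4 and 25.0 CPM, a ratio of 1.73 (1.34 to 2.25), Hist1h3b 1.36 (1.09 to 1.69) and Hist1h3e 1.27 (1.06 to 1.52). Among H1 genes Hist1h1c was higher, at 96.6 and 126, with a ratio of 1.30 (1.17 to 1.45), Hist1h1e was lower, at 339 and 282, with 0.831 (0.779 to 0.886), Hist1h1d was lower, with 0.828 (0.692 to 0.989), and Hist1h1b held 1, at 1.047 (0.983 to 1.11). Hist1h2bc, an H2B gene in which the search found no stem-loop, had 59.7 and 85.2, with a ratio of 1.43 (1.25 to 1.63).

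Hist3h2ba was lower in Smo-cKO cycling RG-like cells, at 250 and 178 CPM, a ratio of 0.710 (0.656 to 0.768). The level of this gene in microglia-like cells moved the same way, from 167 in 25 control cells (32 UMIs) to 32.5 in 100 Smo-cKO cells (23 UMIs), and in PyN-like cells the ratio was 0.892 (0.874 to 0.911). The part of free RNA in the difference was not tested.

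**Figure D4:**
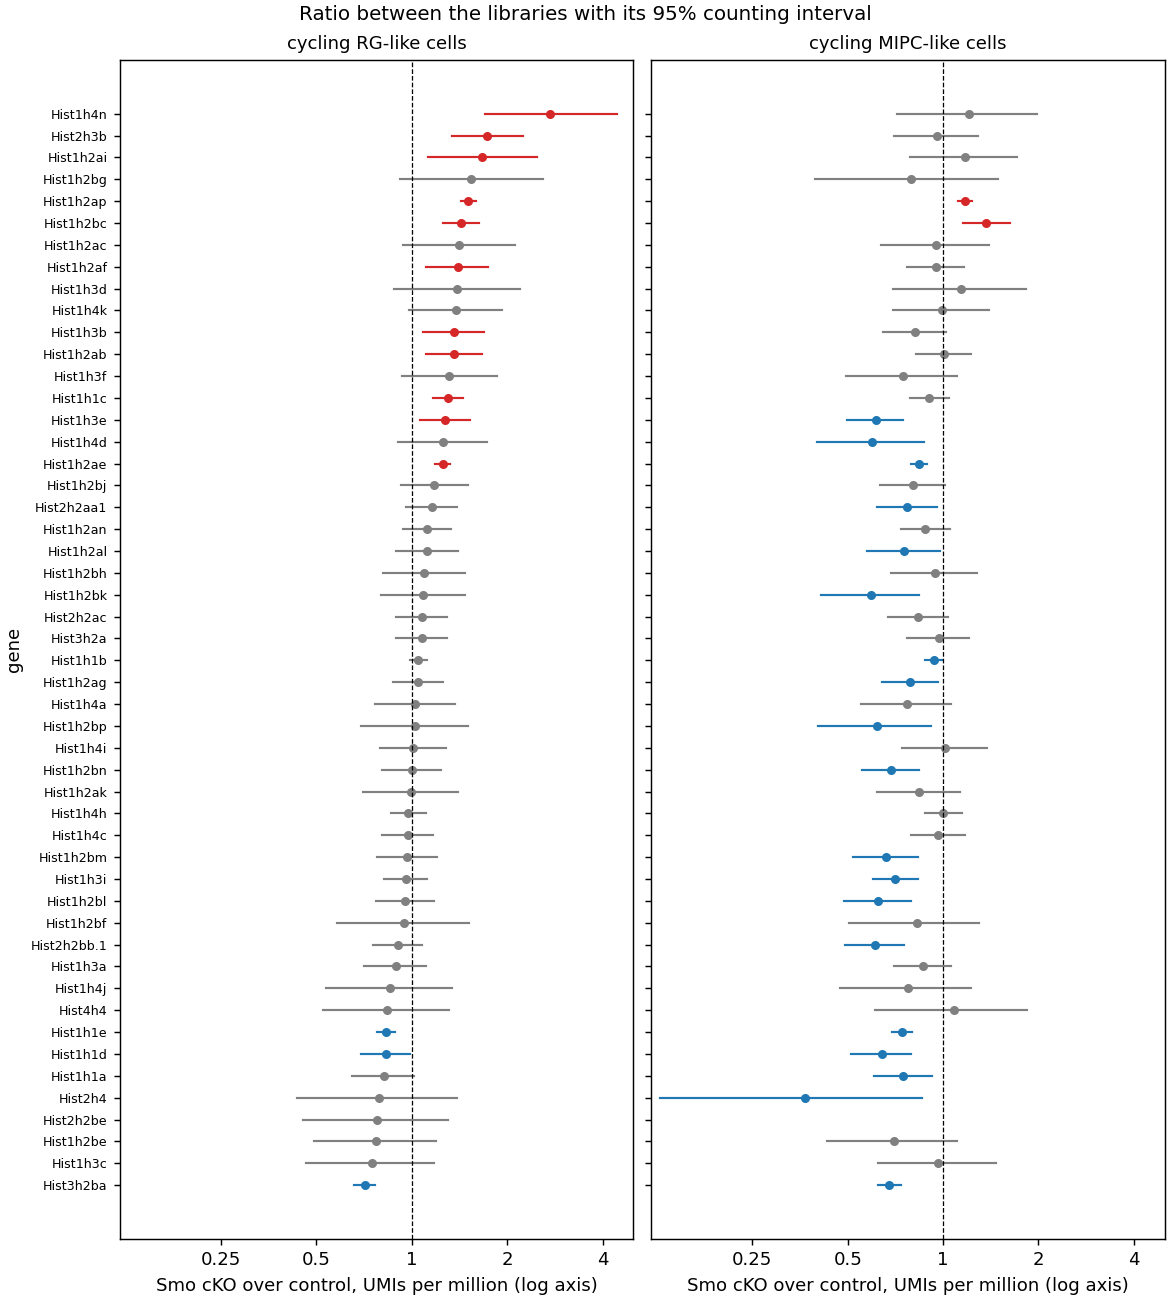
Ratio of CPM, Smo-cKO over control (log axis), for the callable genes in cycling RG-like cells (left) and cycling MIPC-like cells (right), with 95% counting intervals; red intervals lie above 1, blue below 1 and gray hold 1. In cycling RG-like cells 11 genes are red and 3 blue, and in cycling MIPC-like cells 2 are red and 19 blue.

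In cycling MIPC-like cells 2 intervals lay above 1, where 13.2% of all genes tested did, 19 below, where 12.5% did, and 30 held 1. The median log2 ratio was -0.25 over 51 callable genes, against -0.005 over all genes tested. None was at least 2-fold higher, where 1.59% of all genes were, and 1, Hist2h4, was at least 2-fold lower, where 1.04% were, at 4.86 and 1.78 CPM. Hist1h2ap, at 510 in control and 599 in Smo-cKO (ratio 1.17, 1.11 to 1.24), and Hist1h2bc, at 43.9 and 60.2 (1.37, 1.15 to 1.62), were higher in Smo-cKO in both cycling classes. Hist1h1e (0.741, 0.688 to 0.797), Hist1h1d (0.640, 0.511 to 0.794) and Hist3h2ba (0.676, 0.621 to 0.736) were lower in both. Whether dividing PyN-IPC cells made up a like part of this class in both libraries was not tested. The class was made of 2 clusters, which held unlike shares of the libraries. The first, led by Ube2c and Ccnb1, held 675 control and 275 Smo-cKO cells, and the second, led by Rrm2 and Tyms, held 777 and 167. Taken by cluster, a step added after seeing the data, the Hist1, Hist2 and Hist4 genes had a ratio of 1.08 (1.05 to 1.12) in the first and of 0.758 (0.733 to 0.783) in the second, so the direction was not the same in both. In the first, 4 intervals lay above 1 and 9 below among 43 genes, and in the second none above and 22 below among 43. The shares over all genes were not counted by cluster, so these counts are a description. Hist1h2ap had 1.48 (1.37 to 1.6) and 1.00 (0.930 to 1.08), and Hist1h2bc 1.86 (1.51 to 2.30) and 0.704 (0.498 to 0.976). Hist1h1e had 0.891 (0.804 to 0.985) and 0.620 (0.555 to 0.692), and Hist3h2ba 0.711 (0.636 to 0.793) and 0.618 (0.539 to 0.707). In the 2 clusters of cycling RG-like cells, with 590 and 541 control and 287 and 252 Smo-cKO cells, the Hist1, Hist2 and Hist4 genes had ratios of 1.08 (1.03 to 1.13) and 1.13 (1.10 to 1.16). Hist1h2bc had 1.61 (1.38 to 1.87) in the first of these and 1.10 (0.842 to 1.42) in the second, where the interval held 1. Of the Smo-cKO cells of the cycling MIPC-like class 319 of 442 reached 2900 UMIs, against 1379 of 1452 in control.

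Listed genes outside the family were read beside it. Of 11 replacement histones, which are made outside S phase as well, 4 in control and 5 in Smo-cKO were called higher in cycling than in non-cycling RG-like cells. None was called lower. Of all genes tested 6.12% and 5.18% were higher and 2.16% and 2.69% lower. Cenpa, the H3 of centromeres, was 29.2-fold and 34.0-fold higher, H2afx, the H2A that marks DNA breaks, 9.47-fold and 11.6-fold, H1fx, a linker histone, 3.44-fold and 3.57-fold, and H2afz 2.68-fold and 3.41-fold. H3f3a and H3f3b, which encode the replacement histone H3.3, differed 1.13-fold and 1.41-fold in control and 1.08-fold and 1.34-fold in Smo-cKO, H1f0 1.87-fold and 1.70-fold in the libraries, and H2afj was lower, at 0.831 and 0.696. Between genotypes the 11 gave ratios in cycling RG-like cells from 0.734 (Cenpa) to 1.08 (H3f3b). None was called, where 1.17% of all genes tested were higher and 1.84% lower, so this is not a result about the list.

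Of 15 genes for making histone mRNA, 14 could be called, and 1 in control and 2 in Smo-cKO were called higher in cycling RG-like cells, where 6.12% and 5.18% of all genes were, so these shares are not a result about the list. Slbp was 1.88-fold (1.63 to 2.18) and 2.40-fold (2.08 to 2.77) higher, Eri1, an exonuclease of the stem-loop, 2.12-fold and 2.31-fold, Npat 1.82-fold and 1.40-fold, Casp8ap2 1.18-fold and 1.91-fold, and Lsm10, a part of the U7 particle, was lower, at 0.717 and 0.771. None was called between genotypes, where 1.17% of all genes tested were higher and 1.84% lower, so this too is not a result about the list. Slbp had a ratio between genotypes of 0.976 (0.885 to 1.07), Npat 0.970 and Casp8ap2 0.930. Of 8 histone chaperones, which carry histones to DNA, 4 and 5 were called higher in cycling cells, beside the same 6.12% and 5.18%, with Asf1b at 14.9-fold (6.26 to 46.4) in control and Chaf1a at 5.24-fold. Chaf1b had the highest ratio between genotypes, 1.47 (1.19 to 1.81), and Asf1b the lowest, 0.821 (0.636 to 1.05).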

How the data were processed

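Sorted E18.0 mouse cortical cells were measured in 2 10x libraries. The values, which the authors deposited as 1 table, are raw UMI counts made with Cell Ranger (version not given in the sources used here) on build mm10, as named in the submitters' processing notes. The ferret table was not used. Cells with 750 to 5000 genes and under 10% mitochondrial UMIs were kept: 10498 of control (51657121 UMIs) and 7209 of Smo-cKO (42057782 UMIs). No doublets were removed; the set without the 5% of cells with the most UMIs was an alternative. Libraries were joined by anchor integration in Seurat 5.3.0 (R 4.3.3) on 2000 genes, 30 dimensions and a resolution of 0.8, with 98 listed genes left out, and phases were scored with its S and G2M lists less the listed genes. A marker counted for a cluster with a log2 fold of at least 1 (10 CPM added) in at least 10% of its cells; a class needed 3, and clusters led by other markers stayed unnamed (1143 control and 652 Smo-cKO cells).

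UMIs were summed over the cells of a class and given per 1000000 UMIs (CPM), with exact Poisson intervals. Ratios have exact conditional binomial intervals and shares Clopper-Pearson intervals (95%), in python 3.11.15 with numpy 2.4.6, scipy 1.17.1 and pandas 2.3.3. A call needed a 2-fold difference with 1 CPM added and 50 UMIs in both arms together. On simulated counts for Smo-cKO against control in cycling RG-like cells (10270 genes), 95.8% of genes changed 3-fold and 98.0% of those changed 4-fold were called. The simulated class sums held counting error only. They had no variation between cells, embryos or preparations, so these shares do not cover it. Genes and lists were chosen with earlier results of these data known. Histone genes with at least 100 UMIs were described, 1 by 1 in the plot of levels and by counts and examples of each family in the text, and listed genes were named where they had the highest or lowest ratio of their list or define it.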

Additional observations from a re-analysis of the deposited data

Results flagged for a closer look

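For 2 genes the interval of the ratio of Smo-cKO to control lay above 1 in cycling RG-like cells and below 1 in cycling MIPC-like cells. Hist1h3e, which encodes an H3, had a ratio of 1.27 (1.06 to 1.52) in cycling RG-like cells and of 0.612 (0.496 to 0.749) in cycling MIPC-like cells. Hist1h2ae, which encodes an H2A, had 1.25 (1.18 to 1.32) and 0.840 (0.794 to 0.889). By cluster of the cycling MIPC-like class Hist1h2ae had 1.09 (1.01 to 1.18) in the cluster led by Ube2c and 0.699 (0.645 to 0.756) in that led by Rrm2, and Hist1h3e 0.738 (0.544 to 0.988) and 0.540 (0.399 to 0.719). With 1 library per genotype the difference between the classes was not tested. Both genes share over 47% of their 90-base stretches with other genes, so counts could be split between copies.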

How the results depend on the processing

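No paired analysis was possible because each genotype is 1 library. Leaving out a replicate was not done for the same reason. The values below are ratios of summed CPM. Without integration, clusters of RG-like cells split by library. A cycling cluster with Ccne2 and Lig1 among its leading genes came almost wholly from Smo-cKO, and so did most of a non-cycling cluster. A large cluster that was mostly control was cycling only in part. The values without integration thus rest on unlike mixes of cells in the libraries.

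The ratio of Smo-cKO to control in cycling RG-like cells, 1.10 over the 64 genes, was 1.21 without integration, 1.07 with the listed genes kept in the clustering, 1.14 after scaling by the median ratio over genes (0.962) and 1.13 without Hist3h2ba. It was below 1 without the 5% of cells with the most UMIs (0.989), after thinning (0.981), with cells chosen by markers (0.916; 2597 control and 1020 Smo-cKO cells) and over the 20 genes with under 10% of stretches shared (0.986), the last chosen after seeing the data. For the Hist1, Hist2 and Hist4 genes, 1.14, these choices gave 1.25, 1.10 and 1.18 in the first 3 cases, then 1.01, 1.00, 0.943 and 1.08. The causes were not tested. Single genes were not followed in every alternative, and not with cells chosen by markers, the choice that gave the lowest sums. They kept their direction in the 7 alternatives run for them: Hist1h2ap from 1.31 to 1.71, Hist1h2ae from 1.10 to 1.40, Hist1h2bc from 1.40 to 1.48, Hist1h1c from 1.21 to 1.41, Hist3h2ba from 0.697 to 0.763 and Hist1h1e from 0.732 to 0.904. The number of genes past 2-fold, 1 higher and 0 lower, was the same in 6 alternatives.

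The ratio of cycling to non-cycling RG-like cells over the 64 genes in control was 4.08 at resolution 0.4, 4.46 at 1.6, 3.97 without integration, 4.42 with listed genes kept, 5.87 without the cells with the most UMIs and 3.38 over the less shared genes. In Smo-cKO these were 5.78, 5.86, 6.92 and 5.57, then 6.09 after thinning and 3.93 over the less shared genes. For the Hist1, Hist2 and Hist4 genes they were 6.49 at resolution 1.6, 6.23 without integration, 6.35 with listed genes kept, 8.18 without the cells with the most UMIs and 6.23 over the less shared genes in control. In Smo-cKO they were 8.38, 10.2 and 7.88, then 8.58 after thinning and 7.91 over the less shared genes.

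The ratio of cycling RG-like to PyN-like cells over the 64 genes in control was 1.501 at resolution 0.4, 1.495 at 1.6, 1.81 without integration, 1.56 without the cells with the most UMIs and 1.51 after thinning. In Smo-cKO it was 2.36 without integration, 1.67 with listed genes kept, 1.67 without the cells with the most UMIs and 1.57 after thinning. Over the less shared genes, which keep Hist3h2ba, it was 0.587 and 0.631.

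The ratio of S to G2M calls over the 64 genes turned to 1.68 in control and 1.59 in Smo-cKO without integration, and to 1.27 and 1.40 with phases from list shares. For the Hist1, Hist2 and Hist4 genes it turned to 1.77 and 1.64, and to 1.33 and 1.48. Otherwise it was 0.804 and 0.866 at resolution 0.4, 0.738 and 0.742 with listed genes kept, 0.674 and 0.706 without the cells with the most UMIs, 0.716 after thinning in control, and 0.735 and 0.724 over the less shared genes.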

Other observations

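The microglia-like cells, which are not of the RG lineage, also fell into a cycling and a non-cycling set. The Hist1, Hist2 and Hist4 genes summed to 937 CPM (872 to 1007) in 74 cycling microglia-like cells of control against 151 (101 to 217) in 25 that were not cycling, and to 754 (705 to 807) in 78 against 220 (187 to 258) in 100 of Smo-cKO. The Hist3 genes had 107 (85.5 to 132) and 188 (132 to 260) in control and 38.1 (27.6 to 51.3) and 56.4 (40.3 to 76.9) in Smo-cKO. In interneuron-like cells, 172 in control and 293 in Smo-cKO, the Hist3 genes summed to 1194 and 903 and the others to 334 and 361.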
